A study of Trichoderma reesei with 6 samples.

Results

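Transcript levels of Trichoderma reesei on lactose were compared with those on glycerol, using the 2 lactose arrays against the 2 glycerol arrays among the 6 arrays of the study. T. reesei is a filamentous fungus that secretes cellulases, and all cultures were mycelia of QM9414, an early mutant strain selected for cellulase production, supplied with 10 g/l of the carbon source. Labels give 28 h of growth for lactose and 24 h for glycerol and for glucose, the third carbon source, whereas the methods text gives 24 h for every culture. By the labels, carbon source and culture time therefore cannot be told apart. Weight is placed on genes that differed over 2-fold between lactose and glycerol, with an adjusted p under 0.05, while their lactose and glucose means lay less than 2-fold apart. These are 794 of the 9126 features measured, 368 higher (4.03%) and 426 lower (4.67%) on lactose, and they are called lactose-glucose-alike genes below. The name refers only to this 2-fold limit. For 101 of the higher and 122 of the lower genes the glucose mean lay nearer to glycerol than to lactose. Because measured values chose the 794 genes, their differences are given as a description, without a test. The methods describe submerged cultures as grown first on glycerol, washed and moved to the new carbon source, but do not say whether this holds for the array cultures. Labels speak of duplicate flasks and also of mixed replicates of mycelium, so p-values measure only how far these arrays differ, which may be a technical spread.

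Lactose is a disaccharide of glucose and galactose, and in T. reesei it both serves as a carbon source and induces cellulase genes. Galactose enters metabolism through the Leloir pathway of galactokinase, uridylyltransferase and epimerase, or through a reductive route that shares enzymes with pentose use, while glycerol joins glycolysis at the level of triose phosphates. Fungal walls contain chitin, which is turned over by GH18 chitinases and by N-acetylglucosaminidases, and hyphae and spores are coated by small secreted proteins named hydrophobins.

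Values are log2 signals, so a difference of 1 is 2-fold. They ran from 2.70 to 15.90, and array medians lay between 10.80 and 10.85. Across genes, which are not independent replicates, the replicate arrays correlated with r = 0.998 on lactose and 0.996 on glycerol. Signals up to 4.66, the lowest 10% of all, are called the floor range, in which fold sizes carry little precision. In such bulk mycelium, fewer cells of a type and less RNA per cell cannot be told apart. The conidiation gene con-10, a mark of spore formation, had 11.95 and 11.67 on lactose against 6.46 and 5.72 on glycerol, a 52.7-fold rise (adjusted p = 2e-07, limma). The developmental regulator WetA, which acts late in conidiation in Aspergillus, had 8.39 and 8.20 against 6.21 and 6.17 (4.32-fold, adjusted p = 4.67e-06). Both conidiation genes stood higher on every lactose array than on any glycerol array, as did 36.8% of all features. The part of both genes in the results that follow was not tested. The hydrophobin genes with a symbol, hfb1, hfb2 and hfb3, did not rise, with log2 differences of -2.79, -0.26 and -0.29. They were also taken as marks of spores, but hydrophobins coat hyphae as well, so nothing on spores is read from them. Of the hydrophobin genes annotated by the study, Trire2:106538 rose (1.26) and Trire2:105869 fell (-2.72).

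Between lactose and glycerol 1331 genes rose and 1145 fell by over 2-fold with an adjusted p under 0.05 (limma over all 3 carbon sources), which is 14.6% and 12.5% of the features, together 27.1%. The lactose-glucose-alike genes were 8.70% of the features, 27.6% of the genes that rose and 37.2% of those that fell. Among the other 963 genes that rose and 719 that fell, 929 and 664 also stood on the same side of glucose by their means, while 34 and 55 had glucose on the opposite side of lactose. Differences among the lactose-glucose-alike genes were moderate. Their median was 2.53-fold in both directions, with quartiles of 2.23- and 3.32-fold for the higher genes and 2.21- and 3.46-fold for the lower ones. For comparison, the median over all genes that rose was 3.37-fold and over all that fell 2.93-fold. Over 4-fold differences were found for 61 of the higher and 80 of the lower lactose-glucose-alike genes, and over 8-fold ones for 12 and 28.

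**Figure D1:**
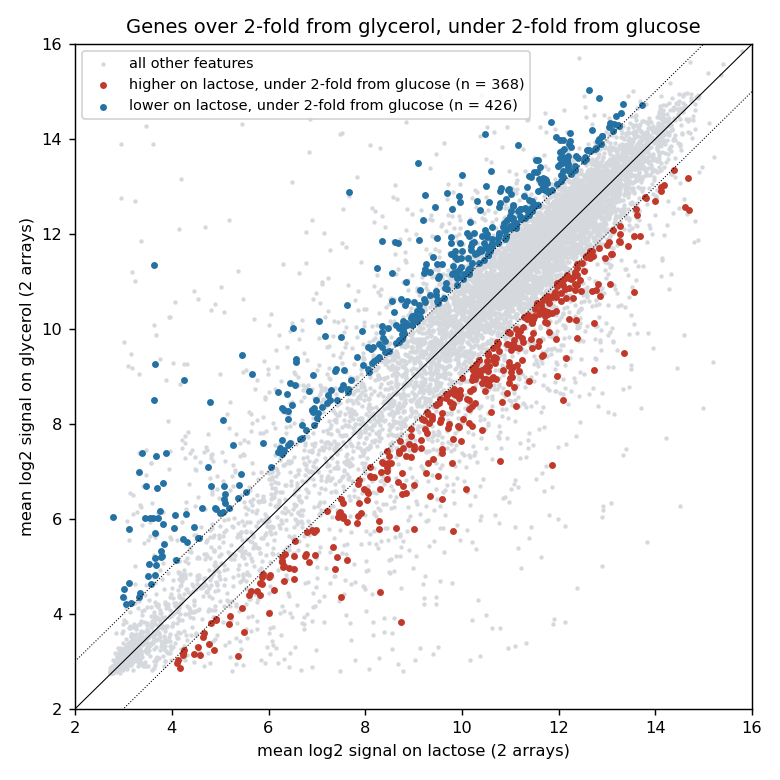
Each point is an array feature, with its mean log2 signal on lactose (horizontal axis) and on glycerol (vertical axis), 2 arrays each. Red points are the 368 lactose-glucose-alike genes higher on lactose, blue points the 426 lower ones, grey points all other features, and the dotted lines mark 2-fold around equality. The largest blue distance, 211-fold, lies at the left, where the lactose signal is in the floor range.

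Both directions were spread over the whole range of signals. The higher genes had a median signal of 10.39 on lactose and 8.83 on glycerol, and the lower genes 9.67 on lactose and 11.29 on glycerol, while the median over all features was 10.84 on lactose and 10.81 on glycerol. On lactose or glycerol, 32 of the 368 higher and 47 of the 426 lower genes had a mean in the floor range. The glucose mean was nearer to lactose than to glycerol for 267 of the higher and 304 of the lower genes, and for 101 and 122 it was nearer to glycerol. Glucose itself passed the same test against glycerol, in the same direction, for 187 of the 368 and for 232 of the 426, where it passed for 8.49% (higher) and 9.07% (lower) of all features. Since the lactose, glycerol and glucose means that chose the genes also fix this comparison, nothing is read from these counts. Both contrasts with lactose share its arrays.

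Among lactose-glucose-alike genes with signals above the floor range, the largest difference in favour of lactose belonged to Trire2:111237, for which no role is annotated. Its arrays gave 11.80 and 11.92 on lactose, 7.30 and 6.96 on glycerol and 11.67 and 12.09 on glucose, so that glycerol alone stood apart, by 26.5-fold from lactose (log2 difference 4.73, SE 0.17). Trire2:44366 had 9.87 and 9.78 on lactose against 5.50 and 5.98 on glycerol (16.9-fold), with 8.87 and 9.12 on glucose. Trire2:123659 was among the brightest, with 13.33 and 13.38 on lactose against 9.24 and 9.76 on glycerol (14.5-fold), and 12.79 and 12.63 on glucose. In none of these genes did the lactose and glycerol arrays overlap, and both lactose arrays lay above both glycerol arrays for 36.8% of all features. Trire2:48747 and Trire2:124051 each differed 12.1-fold, Trire2:78585 11.8-fold and Trire2:56587 11.0-fold. Trire2:122972 (9.41-fold), Trire2:105406 (8.93-fold) and Trire2:49112 (7.79-fold) completed the list of 10. For Trire2:78585 glucose was slightly above lactose, with 11.19 and 11.08 against 10.72 and 10.84. With glycerol in the floor range, Trire2:62977 had 8.80 and 8.68 on lactose against 3.47 and 4.19 on glycerol (30.1-fold), and Trire2:112031 had 8.39 and 8.24 against 4.28 and 4.65 (14.4-fold). Trire2:110265 (8.86-fold), Trire2:69700 (4.77-fold) and Trire2:2489 (3.99-fold) followed, and the last of these lies beside the cellobiohydrolase gene cel6a (Trire2:72567) in RefSeq order.

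In the other direction, Trire2:62463 gave 7.66 on both lactose arrays, 12.90 and 12.86 on glycerol and 7.57 and 7.75 on glucose. Its signal was 37.3-fold lower on lactose than on glycerol (log2 difference -5.22, SE 0.12), while lactose and glucose were 1.00-fold apart. Trire2:68924 had 8.95 and 9.23 on lactose against 13.52 and 13.46 on glycerol (21.1-fold lower), with 8.83 and 8.93 on glucose. Both genes were high on glycerol alone, and both lactose arrays lay below both glycerol arrays for 42.6% of all features. Trire2:120968 had 5.93 and 4.98 on lactose against 9.44 and 9.48 on glycerol (16.1-fold lower), and its lactose arrays were the furthest apart of any lower gene (SD 0.674). Trire2:103062 was 12.8-fold, Trire2:76620 12.4-fold and Trire2:43115 11.9-fold lower. Trire2:120363 and Trire2:123673 were each 11.4-fold lower, Trire2:104200 10.5-fold and Trire2:53053 9.49-fold. Of these, Trire2:76620 was the brightest, with 10.28 and 10.68 on lactose against 14.23 and 14.00 on glycerol. None of the 10 carries a RefSeq symbol or an annotation in the study's tables.

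The largest fold of all lactose-glucose-alike genes belonged to Trire2:109944, with 3.36 and 3.89 on lactose, 11.36 and 11.34 on glycerol and 3.34 and 3.25 on glucose. On lactose and glucose this gene lay in the floor range, so its 211-fold difference is imprecise. Trire2:68466 (48.8-fold lower), Trire2:104181 (29.5-fold), Trire2:105150 (25.5-fold) and Trire2:61830 (16.1-fold) had the same form, with 7.35 to 9.39 on the glycerol arrays and 3.27 to 4.46 on the lactose arrays. Glucose arrays of these 4 genes gave 3.80 to 4.66.

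**Figure D2:**
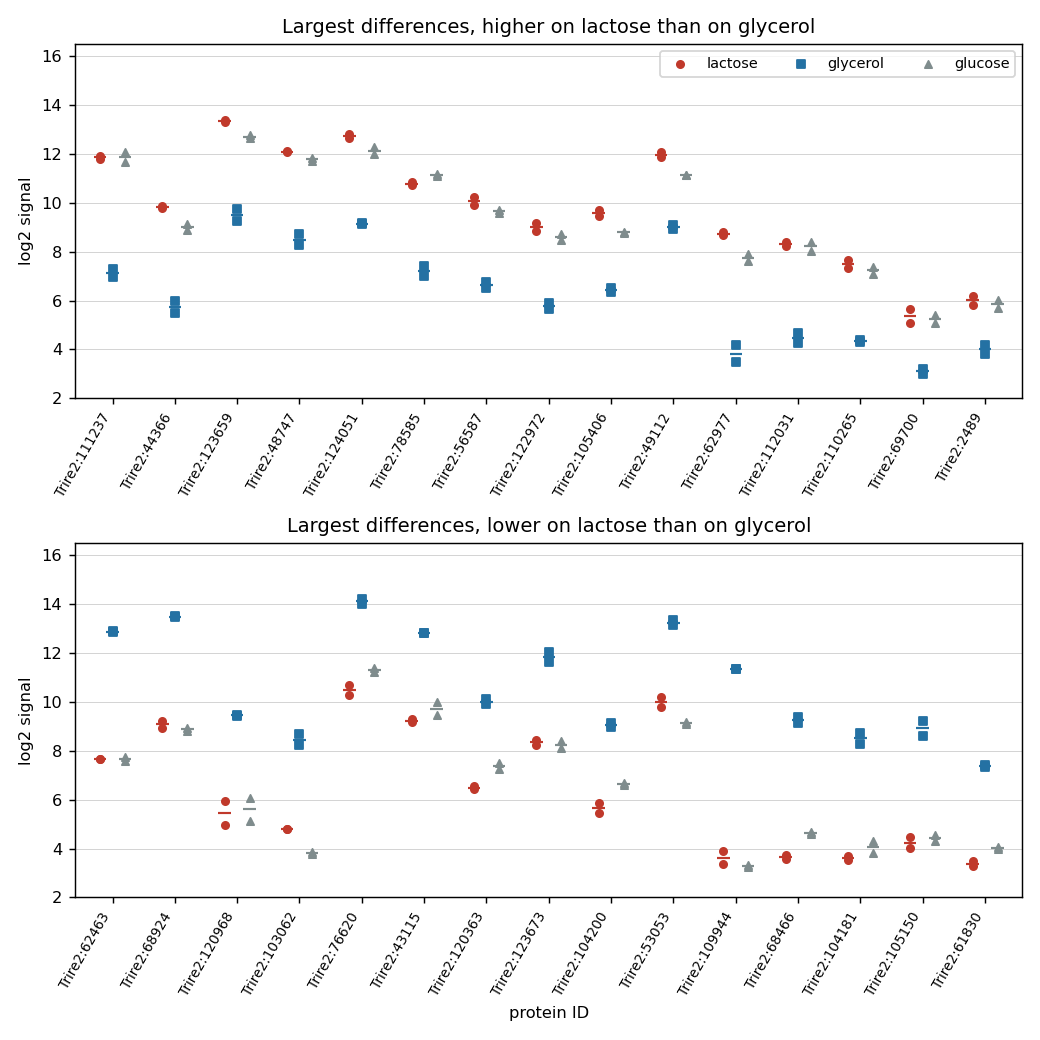
Log2 signals on each array for lactose-glucose-alike genes with large differences, by protein ID, the 10 largest above the floor range and the 5 largest reaching into it in each direction. Circles are lactose, squares glycerol and triangles glucose, 2 arrays each, and bars are group means. The lactose and glucose points of each gene lie less than 2-fold apart by their means and the glycerol points further away, as the choice of genes required.

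Only 11 of the 794 genes carry a RefSeq symbol, and 8 of these 11 were lower on lactose, as were 426 of all 794. Chitin-degrading enzymes made up 5 of the 11, and chitinase and N-acetylglucosaminidase genes are 20 of all 235 genes with a symbol. Counts this small are given as a description. The N-acetylglucosaminidase gene nag2 (Trire2:23346), whose product splits chitin oligomers, had 10.05 and 9.83 on lactose, 12.87 and 12.73 on glycerol and 10.38 and 10.26 on glucose (7.27-fold lower on lactose than on glycerol, log2 difference -2.86, SE 0.13). The chitinase gene chi18-2 (Trire2:59082) had 8.45 and 8.67 on lactose against 10.76 and 11.58 on glycerol (6.09-fold lower), and its glycerol arrays lay 0.58 apart in SD. The chitinase gene chi18-7 (Trire2:81598), the brightest of the family on glycerol, had 12.18 and 12.23 against 13.90 on both glycerol arrays (3.24-fold lower). These 3 genes were lower on both lactose arrays than on both glycerol arrays, as were 42.6% of all features. They had been chosen as lower on these same arrays. The chitinase genes chit18-11 (Trire2:56448) and chi18-5 (Trire2:80833) stood the other way. For chit18-11 the arrays gave 6.28 and 6.33 on lactose against 4.95 and 5.01 on glycerol (log2 difference 1.32). For chi18-5 they gave 8.96 and 8.92 against 7.72 and 7.78 (2.28-fold higher), and with a further quantile normalization its log2 difference of 1.19 became 0.9995, below the 2-fold limit.

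Over all 20 chitinase and N-acetylglucosaminidase genes with a symbol, a list made after their values were seen, 4 rose, 3 fell and 13 did not pass, with a median log2 difference of -0.03 against -0.05 over all features. Of the 4 that rose, 2 were not lactose-glucose-alike. The chitinase-related gene chi18-rel1 (Trire2:65162) rose 2.22-fold (adjusted p = 0.000126, limma). The gene chi18-12 (Trire2:43873) had 4.72 and 3.91 on lactose against 3.13 on both glycerol arrays (2.28-fold, adjusted p = 0.00214, limma), and without lactose replicate 1 its log2 difference was 0.79 and the call ended. The gene chi18-9 (Trire2:72339), at 1.90-fold, missed the 2-fold limit but passed it without lactose replicate 2 (log2 difference 1.02) and without glycerol replicate 2 (1.10). For the second N-acetylglucosaminidase gene, nag1 (Trire2:21725), the arrays gave 10.59 and 10.48 on lactose against 10.70 and 10.40 on glycerol, and the 95% interval of the log2 difference ran from -0.37 to 0.34. For nag1 a difference of over 2-fold thus lay outside the interval. In the floor range of all 4 arrays lay chi18-1, chi18-8, chi18-14, chi18-15 and chi18-17, for which these signals could not show a difference.

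The hydrophobin gene hfb1 (Trire2:73173) had 6.61 and 6.53 on lactose, 9.61 and 9.13 on glycerol and a mean of 6.89 on glucose, and was 6.94-fold lower on lactose than on glycerol. The related genes hfb2 (Trire2:119989) and hfb3 (Trire2:123967) showed another pattern, with signals between 13.66 and 14.02 on all lactose and glycerol arrays. Their log2 differences between lactose and glycerol were -0.26 (95% interval -0.79 to 0.27) and -0.29 (-0.70 to 0.12), while on glucose hfb2 had 6.72 and 7.54 and hfb3 3.15 and 3.71. Hydrophobins annotated by the study, which chose them on these arrays, also split, and this pair was added here after its values were seen. Trire2:105869 was 6.59-fold lower (adjusted p = 1.11e-06, limma), and Trire2:106538, annotated as HFB5, was 2.39-fold higher (adjusted p = 0.000747, limma) but at a log2 difference of 0.93 without glycerol replicate 2, which ended its call. Of 5 hydrophobin genes in all, 1 rose, 2 fell and 2 did not pass.

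**Figure D3:**
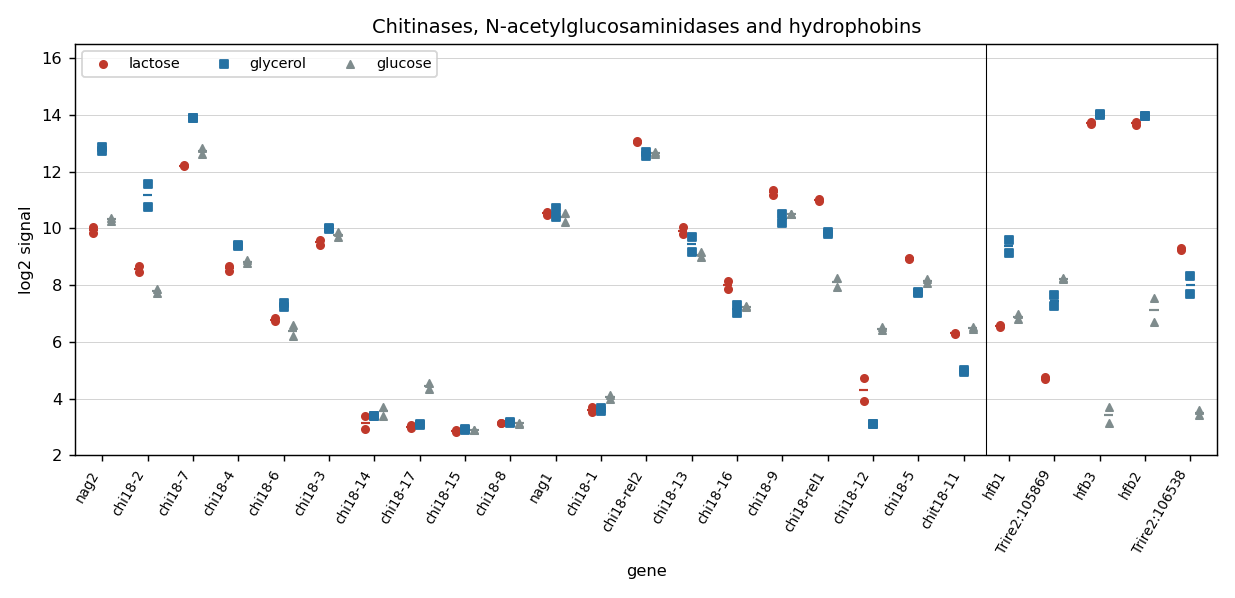
Log2 signals of 20 chitinase and N-acetylglucosaminidase genes (left of the line) and 5 hydrophobin genes (right), ordered in each group by the lactose minus glycerol difference. Circles are lactose, squares glycerol and triangles glucose, 2 arrays each, and bars are means. Glycerol lies furthest above lactose for nag2 (-2.86), hfb1 (-2.79), Trire2:105869 (-2.72) and chi18-2 (-2.61). Lactose lies furthest above glycerol for chit18-11 (1.32), Trire2:106538 (1.26), chi18-5 (1.19) and chi18-12 (1.19).

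The other genes with symbols belong to metabolism, protein turnover and transport. Enolase, eno1 (Trire2:120568), an enzyme of lower glycolysis, had 13.03 and 13.04 on lactose, 14.26 and 14.23 on glycerol and 13.90 and 13.91 on glucose (2.31-fold lower on lactose than on glycerol). The gene psa7 (Trire2:76010) for an alpha subunit of the proteasome core had 12.41 and 12.40 against 13.74 and 13.46 (2.29-fold lower). Against glucose, eno1 stood 1.83-fold and psa7 1.89-fold lower, just under the limit. The gene rla0 (Trire2:76532), named for the acidic ribosomal protein P0 and described after its values were seen, was 2.63-fold lower, at dim signals of 6.40 and 6.15 against 7.79 and 7.54. The gene cro1 (Trire2:124282), whose namesake in Podospora anserina acts in the sexual cycle, was 2.15-fold lower, with 12.13 and 12.04 against 13.23 and 13.15. On the higher side, inda1 (Trire2:51110), named after an amino acid permease gene of Trichoderma harzianum, had 14.41 and 14.35 on lactose against 13.32 and 13.38 on glycerol and 13.47 and 13.46 on glucose. Glucose lay nearer to glycerol than to lactose, 1.88-fold from lactose. The 2.03-fold difference of inda1 from glycerol lay close to the limit, with a log2 value of 1.02 that became 0.997 without lactose replicate 1, 0.994 without glycerol replicate 1 and 0.993 with each array centred on its median.

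Permeases of the major facilitator superfamily (MFS) move small solutes across membranes. The study's table of oligonucleotides for deletion cassettes holds 17 gene IDs, and this list was taken up here after its values were seen. Of the 17, 14 carry an MFS annotation and were selected by the study on these arrays, and the other 3, which carry no annotation, are lactose-glucose-alike. All 17 rose against glycerol, by a median log2 difference of 3.84, and for the 14 this count describes their selection. Trire2:44956 had 12.67 and 12.72 on lactose against 10.91 and 10.69 on glycerol (3.72-fold), with 11.75 and 12.04 on glucose. Trire2:62380 had 13.39 and 13.47 against 11.49 and 11.98 (3.23-fold), with 13.52 and 13.32 on glucose, which equalled lactose within 1.01-fold. Trire2:21595 had 10.54 and 10.44 against 9.27 and 9.13 (2.45-fold), with 10.30 and 10.04 on glucose. These 3 genes thus stood lower on glycerol than on either sugar. The lactose permease gene of the 17, Trire2:3405, differed from both, with 15.00 and 14.97 on lactose against 8.13 and 8.53 on glycerol (101-fold, adjusted p = 1e-08, limma) and 8.21 and 8.04 on glucose.

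Gene order on the RefSeq QM6a assembly, available for 9094 features, was not used to choose the genes. Adjacent lactose-glucose-alike genes of the same direction formed 31 groups of 2 or more among the higher and 34 among the lower genes. Of the higher genes, 169 of 367 with a position (46.0%) lay beside a gene that rose, as did 22.3% of the genes that did not rise. Of the lower genes, 146 of 426 (34.3%) lay beside a gene that fell, as did 20.9% of the genes that did not fall. These shares are descriptions, without a test. The share for the other genes that rose or fell was not taken, so nothing particular to lactose-glucose-alike genes is read from them. Runs of 3 adjacent lactose-glucose-alike genes numbered 3 in each direction, and 9 and 10 when 1 gene between was allowed. The higher runs were Trire2:57860, Trire2:76155 and Trire2:41761 (log2 differences 1.10, 1.06 and 1.72), Trire2:64312, Trire2:64066 and Trire2:4561 (1.66, 1.47 and 1.80), and Trire2:110499, Trire2:5206 and Trire2:67026 (1.18, 1.33 and 1.55). Of these, Trire2:57860 fell below the limit without glycerol replicate 1 (0.95), Trire2:76155 and Trire2:5206 without glycerol replicate 2 (0.70 and 0.95), and Trire2:110499 with a further quantile normalization (0.96). In a linear model without moderation Trire2:76155 and Trire2:5206 also missed the limit on the adjusted p. A lower run began with chi18-2 and went on with Trire2:58389 (-1.52) and Trire2:73048 (-1.27), and its other neighbour, Trire2:58475, was lower too (-2.21) but stood over 2-fold above glucose. The second consisted of Trire2:108543 (-2.52), Trire2:35552 (-2.43) and Trire2:63568 (-1.22, and -0.96 without glycerol replicate 2). The third held Trire2:106480, Trire2:121416 and Trire2:106482, with -1.54, -1.51 and -1.75, the first and the last of them in the floor range on lactose.

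Among the most changed genes, some pairs of neighbours moved the same way. Trire2:48747 and Trire2:62977, with log2 differences of 3.60 and 4.91, lie side by side. Trire2:44366 adjoins Trire2:74282, annotated as a QI74 orthologue (3.01), while its other neighbour, Trire2:119864, was lower (-1.67), and Trire2:111237 adjoins a GCN5 N-acetyltransferase gene (Trire2:111236, 2.52). Trire2:109944 adjoins Trire2:109945, which was 19.4-fold lower on lactose than on glycerol (8.18 and 8.25 against 12.47 and 12.51, adjusted p = 2.23e-08, limma). A gene annotated GT 32, after glycosyltransferase family 32 (Trire2:120923), with 4.39 and 4.98 on lactose against 12.16 and 12.14 on glycerol (176-fold, adjusted p = 1.67e-08, limma), lies between the lactose-glucose-alike genes Trire2:58550 (-1.51) and Trire2:46443 (-2.38). All of these were single loci chosen for the size of their change.

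The study selected all genes annotated in its tables for a change on lactose against both glucose and glycerol. Among them, those whose difference from glycerol most exceeded that from glucose were chosen on that gap. By this choice, glucose had to lie between lactose and glycerol in each of the 10 higher and 10 lower ones. The gene for a Rab geranyl transferase escort protein (Trire2:44278), an accessory factor for lipid attachment to Rab GTPases, had 15.23 and 15.16 on lactose, 9.42 and 9.18 on glycerol and 13.72 and 13.85 on glucose (59.7-fold against glycerol, adjusted p = 8.06e-09, limma, and 2.66-fold against glucose). The permease gene Trire2:68122 had 14.45 and 14.46 on lactose against 8.99 and 9.36 on glycerol (38.8-fold) and stood 2.98-fold above glucose. Both were bright on the 2 sugars and much dimmer on glycerol. An aquaporin gene (Trire2:82321), which encodes a channel of the family that passes water or glycerol, had 11.05 and 10.92 on lactose, 6.20 and 6.49 on glycerol and 9.24 and 9.30 on glucose (24.8-fold against glycerol, adjusted p = 3.78e-08, limma). A second aquaporin gene (Trire2:105870) rose 5.22-fold, equally far from glycerol and glucose.

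Catalases, which break down hydrogen peroxide, were all higher on lactose, 4 of the 4 annotated, and the largest rise of any gene in the comparison was that of the catalase gene Trire2:120371. It had 13.72 and 13.94 on lactose, 5.43 and 5.59 on glycerol and 9.42 and 9.34 on glucose, a rise of 319-fold over glycerol (adjusted p = 2.36e-09, limma). Its neighbour in RefSeq order is Trire2:21595, the gene without annotation from the deletion cassette list described above. The catalase gene Trire2:58472 (25.9-fold) adjoins a sulfite oxidase gene (Trire2:76601, 24.5-fold), and the 3 monocarboxylate transporter genes rose too, among them Trire2:55630 (21.0-fold) with 10.34 and 10.42 on lactose, 5.77 and 6.20 on glycerol and 9.17 and 9.29 on glucose. On the lower side, the bZIP regulator annotated JlbA/IDI-4 (Trire2:107974) had 3.39 and 3.87 on lactose, 10.06 and 10.10 on glycerol and 4.86 on both glucose arrays (87.4-fold, adjusted p = 1.73e-08, limma). Trire2:107881 had 6.93 and 6.77 against 14.40 and 14.43 on glycerol (189-fold). A pair of adjacent genes of unknown role, Trire2:108143 and Trire2:108144, were 57.8- and 53.2-fold lower. The study chose all of these genes on these arrays, so the counts are no independent evidence of a direction. By contrast, the largest falls of the comparison, those of the copper transporter genes Trire2:52315 and Trire2:62716 and the ferric reductase gene Trire2:23353, had lactose signals in the floor range and log2 differences of -10.94, -10.50 and -10.81 against glycerol and of -10.78, -10.63 and -10.86 against glucose.

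**Figure D4:**
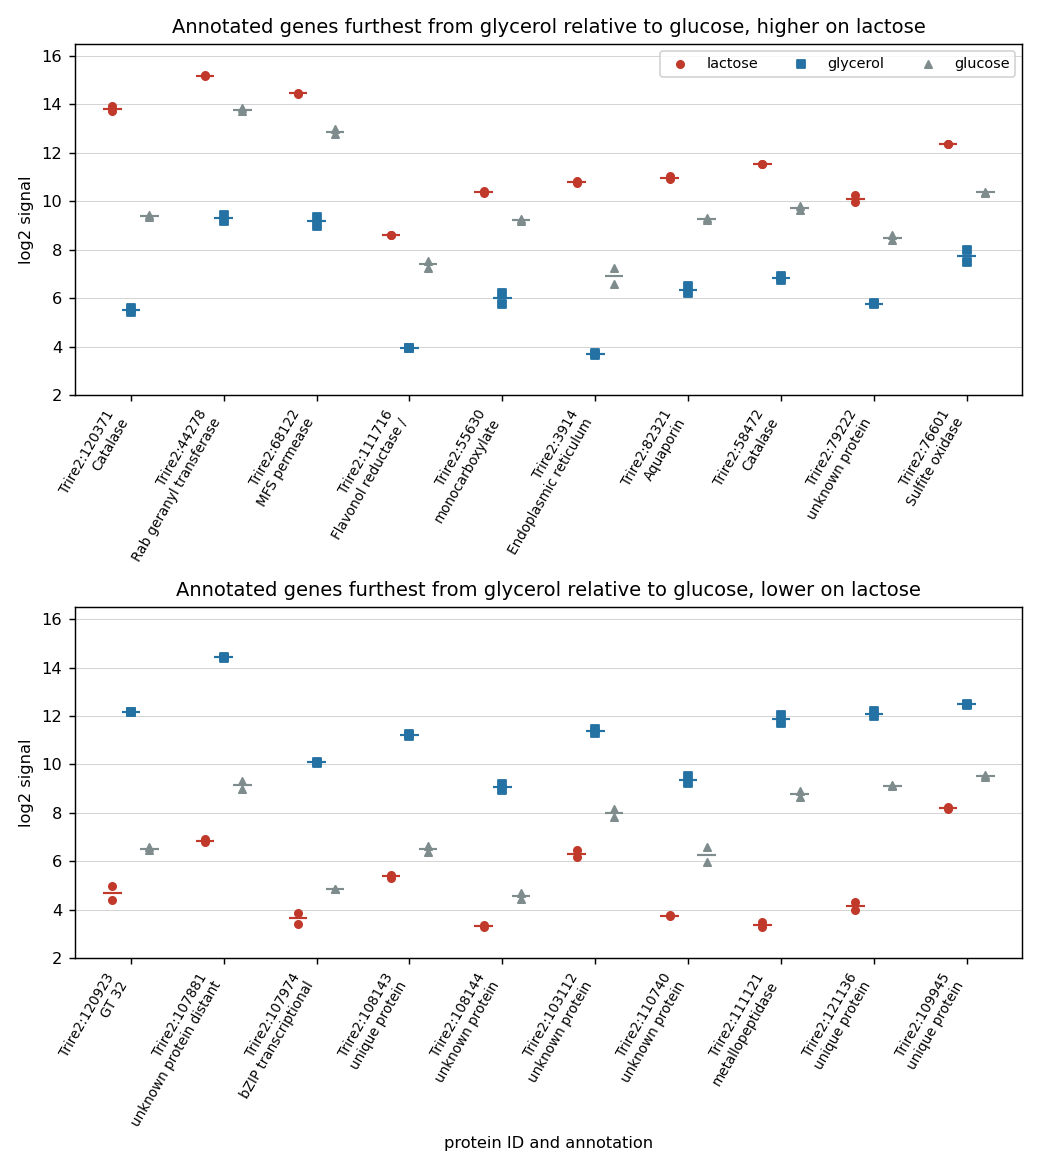
Log2 signals on each array for the annotated genes whose lactose minus glycerol difference most exceeded their lactose minus glucose difference, 10 higher and 10 lower on lactose. Circles are lactose, squares glycerol and triangles glucose, 2 arrays each, and bars are means. In each gene glucose lies between lactose and glycerol, as the choice of genes required. Trire2:44278 had 13.72 and 13.85 on glucose.

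Enzymes that bring galactose and glycerol into metabolism changed in both directions. Galactokinase, gal1 (Trire2:74122), the first enzyme of the Leloir pathway, had 8.39 and 8.62 on lactose against 10.42 and 10.84 on glycerol, a 4.36-fold lower signal (adjusted p = 1.37e-05, limma). The uridylyltransferase gene gal7 (Trire2:111074) had 11.09 and 11.11 against 10.67 and 10.36, a log2 difference of 0.59 (95% interval 0.26 to 0.92), and for the epimerase gene gal10 (Trire2:79955) the difference was -0.14 (-0.46 to 0.18). Thus 1 of the 3 Leloir genes passed the test, and it was lower on lactose. On the reductive route, the reductase gene xyl1 (Trire2:107776) had 11.41 and 11.23 against 9.08 and 8.70 (5.39-fold higher, adjusted p = 4.78e-06) and the dehydrogenase gene lad1 (Trire2:49753) 10.93 and 10.30 against 8.35 and 8.41 (4.70-fold, adjusted p = 2.65e-05, both limma). The gene lxr1 (Trire2:74194), named for L-xylulose reductase, had a difference of -0.87 (-1.13 to -0.61) and did not pass.

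Of the glycerol genes with a symbol, gfd1 (Trire2:2574), annotated as an NAD-dependent glycerol-3-phosphate dehydrogenase, had 11.14 and 11.18 on lactose against 12.26 and 12.08 on glycerol, a 2.01-fold lower signal at the limit (adjusted p = 0.000138, limma). Its log2 difference of -1.005 was -0.99 without lactose replicate 1, -0.92 without glycerol replicate 1 and -0.98 with a further quantile normalization, and the call ended in each. The glycerol dehydrogenase gene gld1 (Trire2:122778) had a difference of 0.86 (95% interval 0.57 to 1.16), and gpd1 (Trire2:119735), used in Trichoderma for the glycolytic glyceraldehyde-3-phosphate dehydrogenase, one of -0.35 (-0.66 to -0.05). Further down, pgk1 (-0.45) and the citrate synthase gene cit1 (-0.88, and -1.08 without glycerol replicate 2, which passed) did not pass, so that eno1 alone passed of the 3 glycolysis and citrate cycle genes with a symbol. The malate synthase gene acu9 (Trire2:79271) of the glyoxylate cycle had 13.93 and 14.09 against 12.76 and 12.74 (2.40-fold higher, adjusted p = 3.17e-05, limma), while isocitrate lyase, acu3 (Trire2:21758), differed by 0.38 (0.07 to 0.69). Both were named after their values were seen.

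**Figure D5:**
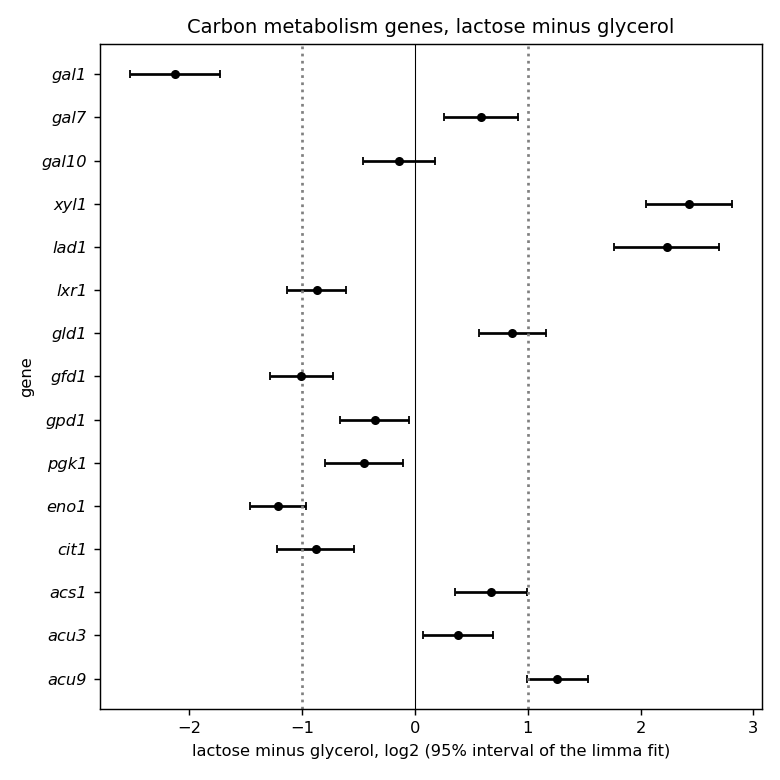
Lactose minus glycerol differences in log2 signal (horizontal axis) for 15 genes of carbon metabolism (vertical axis), with 95% intervals from the limma fit over 2 arrays per carbon source. Dotted lines mark 2-fold. The genes acs1, acu3 and acu9 were picked after their values were seen. The points for xyl1 (2.43), lad1 (2.23) and acu9 (1.26) lie above the upper line, and those for gal1 (-2.12), eno1 (-1.21) and gfd1 (-1.005) at or below the lower one.

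Several groups defined by RefSeq symbols had no member past 2-fold, where 43 of all 235 genes with a symbol (18.3%) passed. None of 40 cytosolic ribosomal protein genes with rpl or rps symbols passed (0), a list that leaves out rla0, which was lower by 2.63-fold. Their log2 differences ran from -0.88 (rpl40) to -0.01 with a median of -0.31 against -0.05 over all features. Of the 40, 17 had an adjusted p under 0.05 (limma), against 59.8% of all features, counted in both directions. All 17 were lower on lactose, and of all 9126 features 2873 were lower with an adjusted p under 0.05 (limma). All 40 lay below 0, as did 4904 of the 9126 features. After a further quantile normalization, however, 35 of the 40 lay below 0 and their median was -0.19. None of 5 histone genes (-0.35 to 0.01), 10 genes for G proteins and other signalling components (-0.60 to 0.23) or 3 genes of the light response (0.03 to 0.08) passed either, and lists this small would hold few calls at that share. Of 5 secretory pathway genes, sar1 (Trire2:61470), a GTPase of vesicle budding, fell 2.34-fold (adjusted p = 2.4e-05, limma) and the chaperone genes bip1 (0.29) and pdi1 (-0.53) stayed under 2-fold. This list leaves out other genes of secretion, such as sso1 (Trire2:63754), picked after its values were seen. The log2 difference of sso1 was -1.058, and -0.98 with a further quantile normalization, which ended its call. Among 6 proteasome genes by symbol, listed after their values were seen, psa5 (-1.80) and psa7 (-1.20) fell and the other 4 had differences between -0.96 and -0.51. Of these 4, psa3 passed without lactose replicate 1 (-1.03) or glycerol replicate 2 (-1.10), and psa6 without glycerol replicate 2 (-1.01). Among 9 regulator genes, xyr1 (Trire2:122208), the activator of cellulase genes, was the one that passed, with 12.88 and 12.63 on lactose against 9.31 and 9.46 on glycerol (10.3-fold, adjusted p = 2.22e-07, limma). The cellulase repressor gene ace1 (-0.34) stayed under 2-fold.

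Words in the study's annotation give larger groups, again chosen by the study on these arrays as changed over 2-fold, so that no annotated gene is lactose-glucose-alike. Of 78 MFS permease genes 69 rose and 9 fell, of 22 amino acid transporter genes 15 and 7, and of 68 glycosyl hydrolase genes 58 and 10. Over all 1540 annotated genes 899 rose and 641 fell, so 58.4% rose. All 12 proteasome genes fell, by a median log2 difference of -1.19, and of 24 genes for mitochondrial proteins 21 fell and 3 rose. The median of glucose minus glycerol over the same lists was -0.12 for MFS permeases, -0.05 for glycosyl hydrolases and -0.01 for the proteasome, whereas it was 1.96 for the 4 catalases and 1.65 for the 3 monocarboxylate transporters.

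At the limits of the choice, Trire2:69362 was the last gene inside on the higher side, with 12.04 and 11.88 on lactose against 10.86 and 11.06 on glycerol (log2 difference 1.002), and Trire2:79602 the first outside, at 0.9999. On the lower side Trire2:105968 lay inside at -1.001 and Trire2:59958 outside at -0.9975. Trire2:69362 dropped out without lactose replicate 1 (0.92) or glycerol replicate 1 (0.90), Trire2:105968 without lactose replicate 1 (-0.89) or glycerol replicate 1 (-0.68), and both outside genes came in without some arrays. At the limit against glucose, Trire2:68230 was the last gene inside and Trire2:103725 the first outside among higher genes, both 2.00-fold from glucose when rounded, and Trire2:25947 and Trire2:59542 among lower genes.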

How the data were processed

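Total RNA was hybridised to 6 one-colour arrays of the NimbleGen platform, with 2 arrays for each carbon source. The deposited values are log2 signals, 1 for each gene and array, for which the submitters' processing notes name RMA. Its version and settings were not given in the sources used here. A second deposited table holds the authors' group means, standard deviations, folds, p-values and F statistics, and was not used.

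The deposited log2 values were fitted unchanged for all 3 groups with limma 3.58.1 in R 4.3.3 (eBayes, default settings, Benjamini-Hochberg adjustment over 9126 features, residual degrees of freedom 3 plus 5.10 from all genes, median residual SD 0.133). No filter on low signals was applied. A call needed over 2-fold and an adjusted p under 0.05. Intervals are 95% intervals of this fit, and only 2 arrays per group limit the precision. The fit was checked on simulated data with known changes. Genes were named by rule. Lactose-glucose-alike genes were named when among the 10 largest in each direction, the 5 largest with a mean in the lowest 10% of signals, with a symbol or an entry in the study's tables, in runs of 3 or more neighbours, or next to a limit. Other genes were named when among the 5 largest changes, the 10 annotated genes with the largest gap between both contrasts, or the leading members of each gene list. Where a further gene or list was picked after seeing its values, the text says so, and all genes and lists were chosen with earlier results of these data known. Symbols and gene order came from RefSeq (QM6a, assembly v2.0), with 9094 features matched and 235 with a symbol. Product names, proteins and promoters were not used here, so sequence likeness and promoter motifs were not analysed. Lists for mitochondrial ribosomal proteins and the cytoskeleton had no match. Python 3.11.15 with pandas, numpy and matplotlib was used for counts and figures. Alternatives concerned limits, variance model, normalization, filters, pairing and single arrays left out.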

Additional observations from a re-analysis of the deposited data

How the results depend on the processing

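The 2-fold limit decided most counts. With a limit of 1.5-fold, 2028 genes rose and 2040 fell between lactose and glycerol, and 850 higher and 1050 lower genes were lactose-glucose-alike. With 4-fold, these counts were 547, 370, 61 and 80. Without the dimmest 25% of genes, which leaves fewer genes to test, 795 rose. With lactose and glucose under 1.5-fold apart, 196 higher and 223 lower genes remained of the reported 368 and 426. Runs of 3 neighbours numbered 9 (higher) and 10 (lower) with 1 gene between allowed. Each of the other alternatives left all 4 counts within 1.5 times those reported. Leaving out single arrays gave 1314 to 1355 genes that rose, 1137 to 1183 that fell, 357 to 386 higher and 409 to 453 lower lactose-glucose-alike genes, where the lone array of a group is assumed to vary like the other groups. Named genes were followed under the alternatives of arrays used, variance model, normalization, pairing and single arrays left out, but not under other limits or filters. Of 155 named genes with a call, 14 lost it under at least 1 of these alternatives, and no direction was reversed (0).

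Replicate numbers gave no sign of paired arrays, as deviations of same-numbered lactose and glycerol arrays correlated with r = -0.14. With the replicate block, 1331 genes rose and 1145 fell, and 368 and 426 genes were lactose-glucose-alike, the same genes as without it. With crossed pairing, chosen after seeing the data, the 4 counts were again 1331, 1145, 368 and 426. Dim signals limit precision for the 1077 features with a lactose or glycerol mean in the floor range.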

Other observations

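The translation elongation factor gene tef1, which the study used as its reference in quantitative PCR, had 13.66 and 13.64 on lactose against 13.62 and 13.38 on glycerol, a log2 difference of 0.15 with a 95% interval from -0.19 to 0.49. The gene tef1a had 14.74 and 14.57 on lactose against 14.99 and 14.95 on glycerol, a difference of -0.32 (-0.58 to -0.05).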
